A study of Homo sapiens with 30 samples.

Results

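The binding sites described here are the iCLIP peaks of myc-LARP6 that lie near the annotated 3' ends of mRNAs. A peak was counted as near-end when its centre lay in the 3'UTR and within 100 nt, measured along the spliced transcript, of the 3' end of the Ensembl canonical transcript of a protein-coding gene on the same strand. Mitochondrial peaks were left out. Of the 47384 peaks in the lists of full-length (FL), ΔNTR and ΔCTR myc-LARP6 together, 532 met this rule: 159 of 14334 for FL, 201 of 17180 for ΔNTR and 172 of 15870 for ΔCTR. Each near-end centre lay in a single gene and none lay in a coding sequence.

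The study expressed codon-optimised LARP6 with an N-terminal myc tag from a doxycycline-inducible vector in U-87 MG, an established glioblastoma cell line that keeps its own endogenous LARP6. FL was compared with proteins lacking the disordered N-terminal region (ΔNTR), the C-terminal region (ΔCTR), the La-module (ΔLa-module) or the N-terminal region together with the La-module (ΔNTD), and the parental line without a transgene was the background. The lines were pools of cells transduced with lentivirus and selected with puromycin, and all received 60 ng/mL doxycycline for 24 h, the parental line included. There were 3 iCLIP samples per line, but each deposited peak list merges the 3 after removal of parental peaks, so no peak score has a replicate error and no test between lists could be made. Intervals given below are 95% intervals that cover counting error only. The depth of the iCLIP libraries is unknown here. Input RNA was sequenced as 1 paired-end 150-nt library (PE150) per line, with 25027075 to 28692476 counts in genes. Each line also had 1 single-end 50-nt library (SE50), with 6181270 to 10307756. By the sample titles, PE150 is long RNA sequencing and SE50 is small RNA sequencing.

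LARP6 is a La-related protein. Its La-module, a La motif joined to an RNA recognition motif, is the fold with which genuine La protein holds the uridine-rich 3' ends of small nuclear transcripts, whereas LARP6 is best known for binding a stem-loop in the 5'UTR of fibrillar collagen mRNAs. Most mRNA 3' ends are made by cleavage a short way downstream of a polyadenylation signal, AAUAAA or a close variant, which is read by the cleavage and polyadenylation machinery before the tail is added and coated by poly(A)-binding protein. Replication-dependent histone mRNAs have no tail and end instead in a conserved stem-loop. iCLIP marks the places where protein was crosslinked to RNA by ultraviolet light.

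The RNA under the highest-scoring near-end sites is shown first, to give the sequence at the places described below. Overlapping near-end peaks of the 3 lists were merged into sites, and 11 of the 12 sites with the highest mean score over the lists, after scaling each list to the same total, are given as DNA letters of the mRNA strand, 5' to 3', with GRCh38 coordinates. Each is the strongest near-end peak of the site, or up to 30 bases around its centre where the peak is wider, and the H4C3 stretch holds only the part of the peak inside the 3'UTR. Peaks of the other lists at a site can lie partly or wholly beside the stretch shown, as at CTNNB1. Capitals mark TGTA and runs of at least 5 bases made only of C and T.
CTNNB1, chr3:41240338-41240367 (+): accagttgCCTTTTatcccaaagttgttgt
ID1, chr20:31606416-31606442 (+): tatTGTAtattacaatgatcaccgact
BUD31, chr7:99419536-99419560 (+): agttggagcacggTCTCTatgggga
CKAP4, chr12:106237945-106237972 (-): aaaaaaagttttgtttagtttactgtga
RTN4, chr2:54972243-54972261 (-): gtactgaactaaatctgtg
VMA21, chrX:151409266-151409283 (+): taaccgTTTTCTggatgg
PKM, chr15:72199088-72199117 (-): caCCTTCCaTTTTCCCCCactactgcagca
H4C3, chr6:26104260-26104277 (+): atctaagaatacgcggtc
EEF2, chr19:3976113-3976142 (-): agcaggcaggaagtcctgtgcggtgtcacc
RPRD1B, chr20:38092257-38092286 (+): tattaatttaggactatttagaagtatagg
TUBA1B, chr12:49127839-49127868 (-): ttgTTTTCacttggtgatcatgTCTTTTCC
C and T made up 73.3% of the PKM and TUBA1B stretches and 43.3% of the EEF2 and RPRD1B stretches, so the strongest near-end sites did not share a base composition.

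Near-end peaks were a small part of 3'UTR binding in each list. They made up 2.36% of the 6724 FL peaks in canonical 3'UTRs (Wilson interval 2.03 to 2.76), 2.38% of the 8458 ΔNTR peaks (2.07 to 2.72) and 2.16% of the 7953 ΔCTR peaks (1.87 to 2.51), and these intervals overlap. The exact Poisson intervals of the counts were 135 to 186 for FL, 174 to 231 for ΔNTR and 147 to 200 for ΔCTR. The peaks lay in 146, 193 and 162 genes respectively. Only 8, 12 and 8 of them were in 3'UTRs so short, at most 100 nt, that any peak there is near-end.

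Measured per length of 3'UTR, peaks were sparser at the canonical end than further upstream. Among genes of at least 1 CPM, the gene count scaled to a common library total, in the PE150 library of the line, the last 100 nt held 138 FL peaks per Mb and the rest of the 3'UTR 282 per Mb, a ratio of 0.488 (exact conditional binomial interval 0.414 to 0.571). The ratio was 0.493 for ΔNTR (0.427 to 0.568) and 0.449 for ΔCTR (0.384 to 0.522). In 3'UTRs of at least 200 nt, the last 100 nt held 137 FL peaks and the first 100 nt, next to the stop codon, held 459. The corresponding counts were 173 and 592 for ΔNTR and 152 and 490 for ΔCTR. The nearest 3' end of any annotated protein-coding transcript of the gene was also used. The ratios were then 1.07 for FL (0.982 to 1.16), 1.12 for ΔNTR (1.04 to 1.21) and 1.05 for ΔCTR (0.970 to 1.13). Only the ΔNTR interval lay wholly above 1. Within 50 nt of such ends, leaving out transcripts tagged as incomplete, the ratios were 0.841 (0.741 to 0.952), 0.872 (0.781 to 0.972) and 0.851 (0.758 to 0.953), a setting chosen after the data were seen.

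Within the window, the peaks crowded towards its upstream side. In expressed genes the last 50 nt held 18 FL peaks, a density with a Poisson interval of 18.4 to 49.0 per Mb, against 246 per Mb from 51 to 100 nt (207 to 291) and 320 per Mb in the next 100 nt upstream (288 to 356). ΔNTR gave 44.6, 307 and 391 per Mb for the same 3 stretches, and ΔCTR gave 48.2, 253 and 379. All 3 lists therefore had few sites in the last 50 nt, and from 81 to 100 nt the interval of every 10-nt bin held the value of the next 100 nt. No peak of an expressed gene had its centre in the last 10 nt in any list, where a count of 0 allows up to 3 peaks per list. The narrowest near-end peak was 17 nt wide, so a peak that stops at the last base has its centre several bases inside. The authors took the crosslink as the first base of a read after its barcode. How many reads that start this near the end are kept was not measured here. Measured from the 3' end, the median near-end centre of FL lay at 77 nt, that of ΔNTR at 75 nt and that of ΔCTR at 75.5 nt. The 10-nt bin starting at 51 nt held 32 ΔNTR peaks (278 per Mb, 190 to 392) and 16 FL peaks (139 per Mb, 79.7 to 226), and the intervals overlap.

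**Figure D1:**
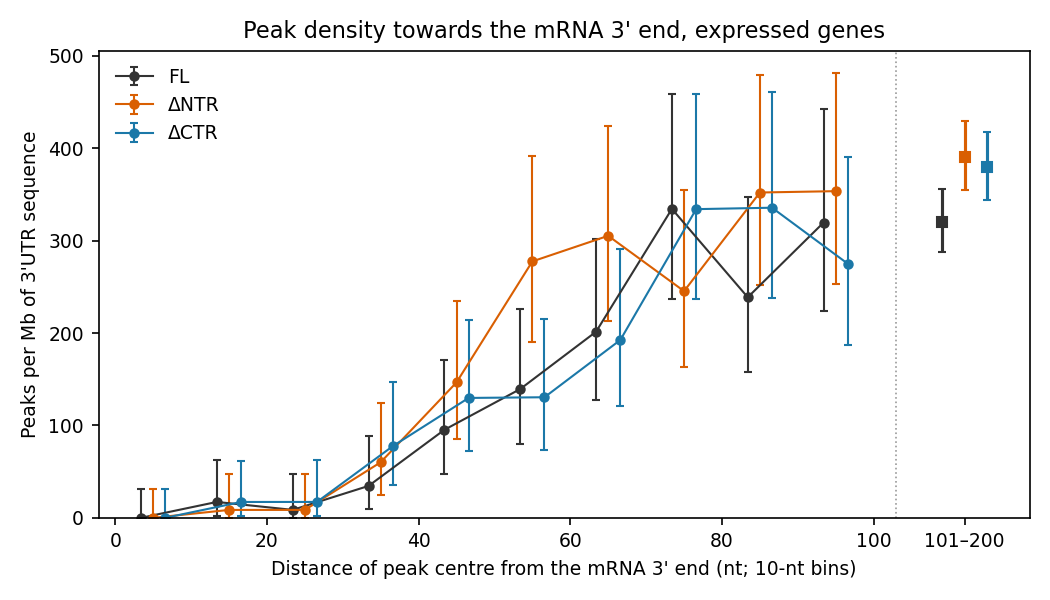
Peaks per Mb of canonical 3'UTR sequence of expressed genes (y axis) against the distance of the peak centre from the mRNA 3' end in nt (x axis, 10-nt bins, with the next 100 nt upstream at the right), for FL, ΔNTR and ΔCTR. Points are pooled lists and bars exact Poisson intervals, and all 3 lists start at 0 in the last 10 nt and stand at 320, 391 and 379 per Mb in that upstream stretch.

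Among the few peaks inside the last 50 nt, that of MARK3, a microtubule affinity-regulating kinase, had the highest FL score. It was centred 49 nt from the end in all 3 lists, with a peak score of 28 for FL, 6 for ΔNTR and 12 for ΔCTR. The highest score there for ΔCTR was 17, at 47 nt in GAPDH, the glyceraldehyde phosphate dehydrogenase of glycolysis. For ΔNTR it was 7, at 50 nt in BCL7B, a subunit of SWI/SNF chromatin remodelling complexes. Of the peaks in the last 50 nt, 1 of 19 scored 10 or more for FL, 0 of 26 for ΔNTR and 3 of 28 for ΔCTR. From 51 to 100 nt the counts were 24 of 140, 17 of 175 and 23 of 144. The peak nearest to an end was that of FBXO6, an F-box protein of ubiquitin ligases, at 5 nt with an FL score of 3, in a gene under 1 CPM.

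Near-end peaks mostly had low scores, as other 3'UTR peaks did, but lacked the highest ones. The highest near-end scores were 75, 44 and 66 for FL, ΔNTR and ΔCTR. Among the far more numerous other 3'UTR peaks they were 2098, 1099 and 3293. The lowest score in the files is 3, and 56.0% of near-end FL peaks had it (48.2 to 63.5) against 49.2% of other 3'UTR peaks. For ΔNTR it was 51.7% (44.9 to 58.6), an interval that holds the value of its other 3'UTR peaks. For ΔCTR it was 55.8% (48.3 to 63.0) against 47.5%, a value just under that interval. A score of at least 10 was reached by 25 FL, 17 ΔNTR and 26 ΔCTR near-end peaks. These are 15.7%, 8.46% and 15.1% of them, against 15.2%, 9.29% and 16.6% of other 3'UTR peaks. Mean scores were 6.63, 4.93 and 6.82 near the end and 8.01, 5.70 and 8.39 elsewhere in the 3'UTR. At the edge of the window, 36 FL peaks centred 91 to 100 nt from the end had scores of 3 to 20 and 27 centred in the 10 nt beyond the window had scores of 3 to 32, so the rule cuts through a continuous stretch of peaks.

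The peaks lay upstream of the polyadenylation signal. The hexamers AATAAA and ATTAAA were searched on the transcript strand in the last 50 nt, where 82.8% of 11243 expressed transcripts with 3'UTRs of at least 100 nt hold at least 1 of them. Among transcripts with a near-end peak the share was 90.4% for FL (84.5 to 94.2), 86.5% for ΔNTR (81.0 to 90.6) and 90.7% for ΔCTR (85.3 to 94.3). Of the near-end peaks in transcripts with a hexamer, the centre was upstream of it in 139 of 143 for FL, 174 of 174 for ΔNTR and 154 of 156 for ΔCTR. Positions at the same distances in all expressed transcripts with a hexamer were upstream of it in 98.0%, 99.1% and 98.3%, so these shares are those that the distances alone give. Relative to the first base of the hexamer, the median FL centre lay 53 nt upstream, against 52 nt in ΔNTR and 54.5 nt in ΔCTR.

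Few peaks touched the signal itself. At least 1 base of a hexamer was covered by 3 FL peaks (1.89%, interval 0.644 to 5.40), 2 ΔNTR peaks (0.995%, 0.273 to 3.55) and 8 ΔCTR peaks (4.65%, 2.38 to 8.91). Peaks of the same place and width laid over all expressed transcripts would cover a hexamer in 3.18%, 3.51% and 5.19%. All 13 of these peaks covered AATAAA and none covered ATTAAA. Most were weak. The highest was a ΔCTR peak of score 19 in MAEA, a subunit of the CTLH ubiquitin ligase, whose border reached the signal while its centre lay upstream. In TUBA1A, an alpha-tubulin, the ΔCTR peak on the signal scored 9 and FL and ΔNTR had none. In ALKBH5, the m6A demethylase, the ΔCTR peak that reached the signal also scored 9. The only FL peaks on the signal were in RND3, a small GTPase, HSPB1, a small heat shock protein, and TCEAL4, each with a score of 3. One of the ΔNTR peaks, also at 3, was in SEMA4B, a semaphorin. These genes were named after their values were seen. The 30 bases that end with the signal are shown for 4 of them to give its context, with the hexamer in capitals.
TUBA1A, chr12:49184816-49184845 (-): tgtccatttctgtgatgggttttgAATAAA
ALKBH5, chr17:18209901-18209930 (+): ttcgccctgatatgtgtgctctacAATAAA
RND3, chr2:150468219-150468248 (-): taaaacatactttttttttcttcaAATAAA
HSPB1, chr7:76304247-76304276 (+): tacatttatcttctgtttttctcaAATAAA

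In base composition, near-end sites were richer in C and T and poorer in A than the ends of mRNAs in general. In windows of 31 nt, 55.3% of bases were C or T for FL (SD over peaks 11.3, n = 159), 56.1% for ΔNTR (SD 12.8, n = 201) and 55.5% for ΔCTR (SD 12.2, n = 172). All expressed transcripts at the same distances had 52.3%, 52.4% and 52.3%, and the ends of the same transcripts had 52.3%, 52.1% and 52.5%. Other 3'UTR peaks had 54.2%, 54.5% and 53.5%, with 51.6%, 51.6% and 51.5% in the rest of their own 3'UTRs, so the excess over the surrounding sequence was of similar size in both places. A made up 24.0%, 23.8% and 23.7% at near-end peaks and 28.0%, 28.0% and 28.2% at the same distances in all expressed transcripts. Other 3'UTR peaks had 24.0%, 23.8% and 24.7% A, so the low share of A was not particular to near-end peaks. These are differences of means over peaks of pooled lists and were not tested.

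Short motifs were counted in the same windows. At least 5 consecutive bases of only C and T were found in 100 of 159 FL windows (62.9%, interval 55.2 to 70.0), in 59.7% of ΔNTR windows (52.8 to 66.2) and in 59.3% of ΔCTR windows (51.8 to 66.4). The shares were 53.3%, 53.4% and 53.3% at the same distances in all expressed transcripts, values that the ΔNTR and ΔCTR intervals hold, and 60.6%, 60.9% and 58.6% at other 3'UTR peaks. TGTA, the start of the element read by Pumilio proteins, was in 20.8%, 20.9% and 21.5% of near-end windows and in 12.7%, 13.3% and 14.3% of windows at other 3'UTR peaks. At the same distances in all expressed transcripts it was in 24.2%, 24.6% and 24.4%, so its frequency near the end is no higher than in mRNA ends in general. These searches used the transcript strand, and the motifs can overlap each other. The 61 nt around near-end centres had a mean predicted folding energy of -10.3 kcal/mol for FL (SD 5.61, n = 155), -10.0 for ΔNTR (SD 5.86, n = 199) and -10.7 for ΔCTR (SD 6.14, n = 168). Other 3'UTR peaks gave -11.1, -11.2 and -11.1. With a GC share of at least 50%, near-end FL windows gave -15.9 and other 3'UTR windows -15.9, and for ΔNTR the means were -15.1 and -15.9.

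The genes with near-end peaks were abundantly expressed and had short 3'UTRs. Their median level in the PE150 library of the same line was 193 CPM for FL, 146 CPM for ΔNTR and 163 CPM for ΔCTR. Genes with 3'UTR peaks only further upstream had medians of 100 CPM for ΔNTR and 95.8 CPM for ΔCTR, and expressed genes had 34.3 CPM in the FL line. The median 3'UTR was 698, 747 and 759 nt long in genes with near-end peaks and 2349, 2256 and 2310 nt in genes with other 3'UTR peaks, beside 1391.5 nt over all expressed genes. The last 100 nt are a larger part of a short 3'UTR, so evenly spread peaks would also give a difference in this direction. The lengths that an even spread would give were not computed. In all, 1.25% of 11642 expressed genes had a near-end peak for FL, 1.66% for ΔNTR and 1.39% for ΔCTR, and 3.14% had one in any of the 3 lists. The counts for gene groups below are set against these shares.

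Replication-dependent histones, whose mRNAs lack a poly(A) tail, had near-end peaks in 10 of 56 expressed genes. Their median 3'UTR is 56 nt, so in most of them the whole 3'UTR lies inside the window. With any 3'UTR peak as the measure, 4, 6 and 4 of 56 had one in FL, ΔNTR and ΔCTR, against 22.3%, 24.3% and 26% of expressed genes. The strongest histone site, in H4C3, an H4 gene, lay across the stop codon and scored 27 for FL, 25 for ΔNTR and 20 for ΔCTR, and 14 of the ΔNTR score came from a peak centred further upstream. A further H4C3 site, centred 36 nt from the end, scored 3 for FL and 3 for ΔNTR. The near-end peaks of the other histone genes scored 3 to 5. Histone genes share nearly identical stretches, so reads could be split between copies.

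The histone stem-loop, searched by a sequence pattern of its stem and loop on the transcript strand of the last 40 nt, was present in 65 of 69 histone transcripts and in 0.0518% of 11586 other expressed transcripts. All 15 histone near-end peaks were in transcripts that hold it. None of them overlapped it. The gap between peak and stem-loop was 3 to 40 nt, with a median of 8 nt. Histone peaks therefore lay upstream of the stem-loop, as most of the others lay upstream of the polyadenylation signal. The stem-loops lay 4 to 21 nt from the end and the peak centres 34 to 73 nt. The overlap that these distances alone would give was not computed, and 11 of the 15 peaks scored 3.

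Glycolytic enzymes had near-end peaks in 5 of 17 expressed genes. They were PKM (pyruvate kinase), GAPDH, ENO1 and ENO2 (enolases) and LDHA (lactate dehydrogenase). PKM had site scores of 72, 10 and 11 for FL, ΔNTR and ΔCTR, GAPDH 25, 23 and 27, and ENO1 7, 7 and 4. ENO2 and LDHA had a ΔCTR peak of score 4 and none in the other lists. Tubulins had near-end peaks in 4 of 10 genes, namely TUBA1A, TUBA1B, TUBB and TUBB4B. TUBA1B, an alpha-tubulin, scored 20, 22 and 25, and TUBB, a beta-tubulin, 10, 4 and 30. Actin cytoskeleton genes had them in 7 of 35, of which the highest was PFN1, the actin monomer-binding profilin, with 14, 17 and 3. All of the PFN1 score for ΔNTR came from outside the window. Site scores include peaks centred outside it, as set out below for PKM and TUBA1B. With any 3'UTR peak as the measure, 9, 10 and 10 of the 17 glycolysis genes had one in FL, ΔNTR and ΔCTR. The counts were 6, 6 and 7 of 10 tubulins and 21, 25 and 22 of 35 actin cytoskeleton genes. Among expressed genes the shares were 22.3%, 24.3% and 26%, so these groups also stood above all genes for 3'UTR peaks in general. TUBB was at 1259 CPM and GAPDH at 3781 CPM in the FL line, far above the median of expressed genes, and the part of abundance in these counts was not tested.

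The other groups held 0 to 3 genes with a near-end peak each, counts that were not tested against the 3.14% of all expressed genes. Cytosolic ribosomal protein genes, with a median 3'UTR annotation of 166 nt, had them in 2 of 84, RPS24 and RPS29, and respiratory chain subunits in 2 of 80. RPS24 had a ΔNTR peak of score 6 and RPS29 scored 4, 7 and 3. At this RPS29 site only the ΔCTR score came from a peak centred in the window. hnRNP genes had them in 0 of 21 and heat shock protein genes in 0 of 19, although HSPB1 outside that list had a site. Translation factors had them in 3 of 65, led by EEF2, the elongation factor that moves the ribosome along mRNA. Collagens, whose fibrillar members are the classical LARP6 targets, had them in 2 of 19. The COL6A3 site, in a chain of type VI collagen, scored 12, 8 and 4, and COL6A2 had 2 FL peaks of score 3. Integrins had them in 2 of 16, with a ΔCTR peak of score 7 in ITGA3. Cleavage and polyadenylation factors had near-end peaks in 2 of 22, PAPOLA, the poly(A) polymerase, with 0, 4 and 3, and PABPC4, a poly(A)-binding protein.

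Merging the 3 lists gave 388 near-end sites in 366 genes, of which 22 genes had 2 sites and the rest 1. A site counted as present in a list when any peak of that list overlapped it by at least 1 nt. On this count 55 sites were in all 3 lists, 72 in FL alone, 118 in ΔNTR alone and 84 in ΔCTR alone, while 17 were shared by FL and ΔNTR only, 23 by FL and ΔCTR only and 19 by ΔNTR and ΔCTR only. Of near-end FL peaks, 45.3% were overlapped by neither other list (37.7 to 53.0), against 44.8% of other 3'UTR peaks. The shares were 58.7% (51.8 to 65.3) against 55.1% for ΔNTR and 48.8% (41.5 to 56.3) against 50.8% for ΔCTR, so near-end peaks were not set apart by this measure. Sites found in a single list were weak. The highest were RAB7A, a late endosomal GTPase, with a score of 8, and TUBA1A with 9, both in ΔCTR. NT5DC2 with 7 was the highest in ΔNTR, and CAV1, the caveolar coat protein, and TRIR with 6 each the highest in FL.

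Whether an FL near-end peak was found again followed its score. ΔNTR peaks overlapped 40.3% of the 159 near-end FL peaks (32.9 to 48.0), against 40.6% of other 3'UTR peaks and 35.1% of all FL peaks. ΔCTR peaks overlapped 70 of the 159 (36.5 to 51.8%), against 43.4% of other 3'UTR peaks and 37.7% of all. In the other direction, FL peaks overlapped 31.8% of near-end ΔNTR peaks (25.8 to 38.6), with 29.8% of all ΔNTR peaks, and 39.5% of near-end ΔCTR peaks (32.5 to 47.0), with 34.1% of all ΔCTR peaks. At an FL score of 3 the near-end shares were 19.1% for ΔNTR and 22.5% for ΔCTR, from 4 to 9 they were 51.1% and 57.8%, and at 10 or more 24 of 25 peaks were overlapped in each. Near-end and other 3'UTR peaks had overlapping intervals within each score class.

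**Figure D2:**
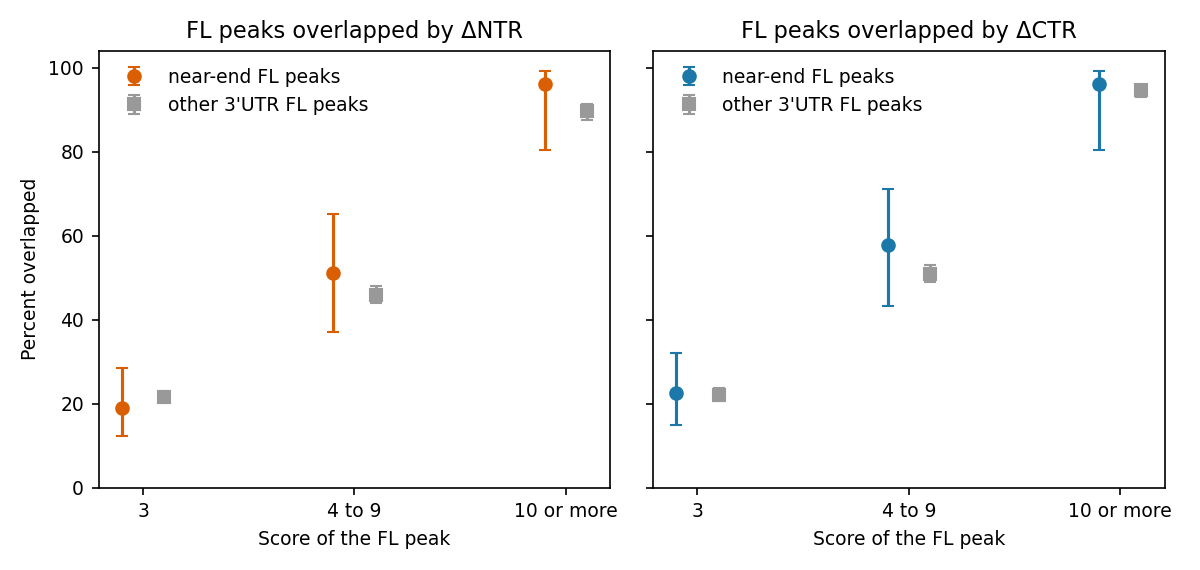
Percent of FL peaks overlapped by at least 1 nt by a ΔNTR peak (left) or a ΔCTR peak (right), by score of the FL peak (x axis), for near-end peaks (circles) and other 3'UTR peaks (squares) with Wilson intervals. Near-end shares climb from 19.1% and 22.5% at a score of 3 to 24 of 25 peaks at scores of 10 or more.

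The strongest sites differed in how their scores were spread over the lists. CTNNB1, the gene of beta-catenin, had the highest site, with 96 for FL, 44 for ΔNTR and 82 for ΔCTR. Its FL and ΔCTR peaks were centred 121 to 168 nt from the end, outside the window, and only the wider ΔNTR peak had its own centre inside. ID1, an inhibitor of DNA binding, scored 39, 47 and 66. Its ΔNTR score came wholly from a wider peak centred outside the window, whereas its FL and ΔCTR peaks were centred inside. BUD31, a splicing factor, scored 75, 15 and 57, with peaks of almost the same borders in all lists, and its PE150 level was 65.1, 55.8 and 60.9 CPM. CKAP4, a membrane protein of the rough endoplasmic reticulum, scored 60, 14 and 62 at 164, 164 and 159 CPM.

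RTN4, the reticulon that shapes tubular endoplasmic reticulum, scored 23, 29 and 61. Of the ΔCTR score, 20 came from a peak centred 138 nt from the end. VMA21, an assembly factor of the vacuolar proton pump, scored 31, 6 and 64, but its FL and ΔCTR peaks were wider and centred 105 and 116 nt from the end. At PKM the FL score of 72 came from a peak 135 nt wide whose centre lay outside the window, while ΔNTR and ΔCTR had narrower peaks of 10 and 11 in the window. EEF2 scored 49, 12 and 11, of which 19 of the FL score lay in a peak centred in the window. RPRD1B, a protein that binds the tail of RNA polymerase II, scored 25, 11 and 39. GAPDH had close scores in the 3 lists, at 25, 23 and 27. The TUBA1B scores of 20, 22 and 25 rest partly on peaks centred 106 nt from the end, and with only peaks centred in the window they were 20, 5 and 0.

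Over the 72 near-end sites with both an FL and a ΔNTR peak, summed scores were 1023 for FL and 656 for ΔNTR, a ratio of 0.641. For all sites in both lists, wherever in the genome, the ratio was 0.726, and for those in 3'UTRs it was 0.704. ΔNTR was lower than FL at 36 of the 72, higher at 23 and equal at the rest, beside 2307 lower and 1557 higher of 4619 sites in all. The median ratio per site was 0.963, and 1.06 once scores were divided by the list total. Where the mean score was 10 or more, and with scores divided by the list total, ΔNTR was at most 0.5 times FL at 10 of 27 sites (37.0%), against 29.4% of all such sites and 31% of those in 3'UTRs. It was at least 2 times FL at 4 of 27 (14.8%), against 9.05% and 9.89%. Over the 78 sites of FL and ΔCTR, summed scores were 1041 and 1135, a ratio of 1.09. It was 1.13 for all sites and 1.18 for those in 3'UTRs. Divided by the list total the near-end ΔCTR ratio was 0.944. ΔCTR was at most 0.5 times FL at 5 of the 30 strong sites (16.7%), against 12.5% of all and 9.75% of 3'UTR sites, and at least 2 times FL at 4 of 30 (13.3%), against 13.8% and 15.6%. Site scores include every overlapping peak of a list, also those centred outside the window. With only peaks centred inside it in both lists, a choice made after the data were seen, the ratios were 0.634 for ΔNTR and 1.12 for ΔCTR.

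**Figure D3:**
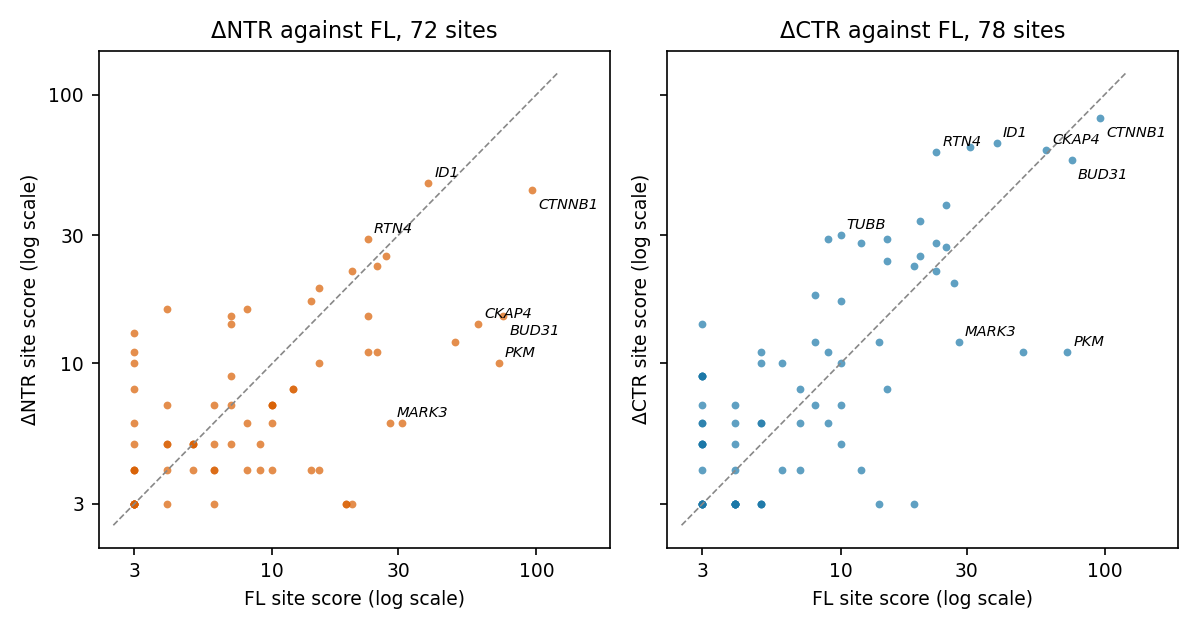
Site score of ΔNTR (left, 72 sites) and ΔCTR (right, 78 sites) against that of FL at near-end sites with a peak in both lists, on log axes. The dashed line marks equal scores, each point is a merged site, and PKM (72 against 10 and 11) and MARK3 (28 against 6 and 12) lie under the line in both panels.

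Among the 29 strong sites present in all 3 lists, the lowest ΔNTR to FL ratios were 0.139 at PKM, 0.15 at MAEA, 0.158 at VOPP1, 0.194 at VMA21 and 0.2 at BUD31. MAEA scored 20, 3 and 34, and VOPP1 19, 3 and 23. Among the highest were PRDX1, a peroxiredoxin (2.14), HDGF (1.27), RTN4 (1.26) and PFN1 (1.21). For ΔCTR to FL the lowest were PKM (0.153), PFN1 (0.214), EEF2 (0.224), MARK3 (0.429) and TPX2 (0.533), a spindle assembly factor. The highest were 3.22 at CSF3, the gene of granulocyte colony-stimulating factor, with scores of 9, 5 and 29, and 3 at TUBB, followed by RTN4 (2.65), NOLC1 (2.33) and CKS2 (2.25). PKM was in the lowest 5 of both comparisons, which share the FL list. The FL scores at PKM, VMA21, HDGF and TPX2 came wholly from peaks centred outside the window. So did the ΔNTR scores at MAEA and PFN1, and part of the ΔCTR scores at MAEA, RTN4 and NOLC1.

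Input RNA levels of these genes were close in the 3 lines. Over 365 genes with near-end peaks and at least 1 CPM in both libraries, the median log2 difference of ΔNTR from FL was 0.03, with a range of -0.40 to 1.07. For ΔCTR it was 0.00, with a range of -0.31 to 0.50. A difference of at least 2-fold was seen for 2 of 365 genes in ΔNTR, against 0.451% of all genes, and for 0 of 365 in ΔCTR, against 0.0521%. The 2 genes were CA9, carbonic anhydrase 9, at 114 CPM in FL and 240 CPM in ΔNTR, and CRACR2B, a calcium channel regulator, with 24.9 CPM in FL and a log2 difference of 1.04. They were named because the count is small. With 1 library per line these differences have no replicate check.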

How the data were processed

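Each deposited BED list gives peaks with a score, which the authors made by removing ribosomal and transfer RNA reads (Bowtie2), aligning to GRCh38.p13 with STAR, collapsing duplicates with UMI-tools, calling peaks in each replicate with Clippy, merging the 3 replicates with their scores summed, and removing parental peaks with bedtools 2.30.0. The input files hold counts per gene that the authors took from STAR 2.7.10b. Here, the strand column was the one with at least 4 times the counts of the other, and CPM used the total in genes. 3'UTRs, 3' ends and sequences came from GENCODE release 44 on GRCh38, later than the release the authors used.

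Peak centres were placed on spliced canonical transcripts with scripts in Python 3.11.15 (numpy 2.4.6, scipy 1.17.1), checked with simulated peaks on annotated transcripts. Wilson, exact Poisson and exact conditional binomial intervals were used. Folding energies came from RNAfold (ViennaRNA 2.7.2), and edgeR 4.0.16 gave TMM factors only, for an alternative scaling of the input. With pooled lists no test was run. Other windows, 3' ends, score minimums, overlaps and scalings were tried, some of them added after the data were seen. The smallest deposited score was 3.

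Genes were named by rule: the 12 highest sites, the 5 lowest and 5 highest ratios for each deletion among sites in all 3 lists with a mean score of at least 10, the 3 highest in 1 list only, the highest of each group and the 5 genes with most sites. The members, groups and rules were chosen with earlier results of these data known. SE50 libraries, titled small RNA sequencing, served only as an alternative scaling. A few items that meet the rule are not reported here.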

Additional observations from a re-analysis of the deposited data

Results flagged for a closer look

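The ΔLa-module and ΔNTD lists, which no comparison above uses, held near-end peaks, listed here because their counts exceed the 3 that a count of 0 allows, which compares them with no expected number. The ΔNTD list had 8 near-end peaks among 79 in canonical 3'UTRs (10.1%, Wilson interval 5.22 to 18.7), and the ΔLa-module list had 4 among 151 (2.65%, 1.03 to 6.61), an interval that holds the 2.36% of FL. All scored 3 or 4. The ΔNTD peaks included those in NOC3L, MYL6, MT1E, COL6A3, CLIC1 and RMDN1, and the ΔLa-module peaks those in S100A6, RPS24 and HSP90B1. The COL6A3 and S100A6 peaks were also overlapped by FL, ΔNTR and ΔCTR peaks, whereas those in HSP90B1, NOC3L and RMDN1 were overlapped by no peak of another list. COL6A3 was at 3058 CPM in the ΔNTD line, and the part of expression level in these peaks was not tested.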

How the results depend on the processing

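Of 108 recomputed values, 44 stayed within the limits set for calling a value unmoved (its counting interval or, for counts, 1.5 times), 56 moved further and 8 changed side of 1. Values are given for FL, ΔNTR and ΔCTR in that order. With a window of 50 nt the counts were 19, 26 and 28, the shares of 3'UTR peaks 0.283%, 0.307% and 0.352% and the density ratios 0.110, 0.127 and 0.145; with 200 nt they were 511, 631 and 590, then 7.60%, 7.46% and 7.42%, and 0.809, 0.797 and 0.790. Peaks with a score above 3 alone numbered 70, 97 and 76, and for ΔCTR gave a share of 1.83%, a density ratio of 0.378 and 54.1% C and T. The nearest 3' end of any protein-coding transcript gave 610, 798 and 707 peaks, 9.07%, 9.43% and 8.89%, and ratios of 1.07, 1.12 and 1.05, on the other side of 1. Further settings were chosen after seeing the data. Without transcripts tagged as incomplete at their 3' end the ratios were again 1.07, 1.12 and 1.05, with 50 nt from such ends 0.841, 0.872 and 0.851, with each peak spread evenly over its own 3'UTR 0.370, 0.371 and 0.349, against the first 100 nt 0.298, 0.292 and 0.310, and for FL in 3'UTRs of at least 500 nt 0.387. The cause of these shifts was not tested. Without the expression filter the ratio was 0.417 for ΔNTR and 0.379 for ΔCTR. The hexamer share was 0 for FL and ΔNTR with scores above 3 and 0 for ΔNTR and ΔCTR by peak centre. FL near-end peaks overlapped by ΔNTR and ΔCTR were 25.2% and 31.4% with at least 50% of both peaks, 60.0% and 57.1% with scores above 3, and 26.3% each with 50 nt. The ratio of summed ΔNTR to FL scores was 0.709 divided by list totals. The median of the ΔNTR ratios per site was 0.963. With scores divided by CPM this median was 0.829 for PE150 and 0.736 for SE50, the latter at 36 sites. The ratio of summed ΔCTR to FL scores changed side to 0.944 divided by list totals. The median of the ΔCTR ratios per site was 1.11, and it changed side to 0.646 with scores divided by SE50 CPM, at 33 sites. Whether the small RNA counts of SE50 follow mRNA levels was not tested, so the SE50 values are not a check on abundance. No paired analysis was possible because the lists hold no values per replicate, which also leaves no replicate to omit. Pooled lists and 1 input library per line limit every comparison to counting error.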

Other observations

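Some 3'UTR peaks outside the near-end window lay close to another annotated end. Of the other 3'UTR peaks, 451 for FL (6.87%), 597 for ΔNTR (7.23%) and 535 for ΔCTR (6.88%) were within 100 nt of the 3' end of a different protein-coding transcript of the same gene. Which of these ends is used in U-87 MG was not measured in the data used here. The amount of other 3'UTR sequence within 100 nt of such an end was not set beside these shares, so they have no background.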
